A study of Rattus norvegicus with 14 samples.

Results

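The cytosolic ribosomal protein genes are the nuclear genes for the protein subunits of the ribosome that translates cytoplasmic messenger RNA. They were taken as every gene whose only symbol in the platform's annotation has the form Rpl, Rps or Rplp followed by a number and, in some, the letter a, x or y. This found 67 of the 14497 genes measured through a probe set with 1 gene symbol, 42 of the large subunit and 25 of the small subunit. The choice used names only, not measured values.

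The study asked how rapamycin, an inhibitor of the kinase mTOR, affects preneoplastic foci in a rat model of liver cancer, and all its animals were male F344 rats, an inbred strain. RNA came from formalin-fixed, paraffin-embedded liver from which areas were cut by laser capture microdissection, and was measured on Affymetrix Rat Gene ST 1.0 arrays. There were 4 groups of 3 animals. The age of the animals was not given in the sources used here.

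Normal liver came from unmanipulated adult rats. AAF/PH liver came from rats that received a 2.5 mg pellet of 2-acetylaminofluorene, released over 14 days, on day 1, underwent partial hepatectomy on day 7 and were killed on day 14; it is labelled as oval cells, the ductular progenitor-like cells that multiply when hepatocyte division is blocked. The foci came from Solt-Farber rats, which were given diethylnitrosamine at 200 mg/kg on day 1, a 2-acetylaminofluorene pellet of the same kind on day 14 and a partial hepatectomy on day 21, and were killed on day 70. From them, persistent focal lesions positive for GSTP, the placental glutathione S-transferase that marks such foci, were captured. The 2 foci groups shared all of this and differed in a 21-day pellet placed on day 21, which held placebo or rapamycin at 2.5 mg/kg per day, so the stated release period had ended before the animals were killed. A difference between foci and normal liver therefore includes the carcinogens, the surgery and the selection of lesions. One between AAF/PH and normal liver includes the 2-acetylaminofluorene, the surgery and the choice of captured areas. Rapamycin animal 3 was measured on 3 arrays, a pair on RNA of one capture and one on RNA of a second capture, which were averaged and counted as 1 animal.

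Each ribosome carries most of its proteins in a single copy, so cells make these subunits in matched amounts. In vertebrates the messenger RNAs of these genes start with a run of pyrimidines, the 5′ terminal oligopyrimidine or TOP element, through which mTOR signalling controls their translation, largely by how many ribosomes load on each message and less by how much message there is. Arrays measure the messages only. In liver, ribosome production rises when hepatocytes re-enter the cell cycle after partial hepatectomy.

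The annotated start sites were searched for runs of pyrimidines like those of the TOP element. Below are windows of 30 bases, 10 before and 20 from the annotated start, from RefSeq promoter records on GRCr8, in which 57 of the 67 genes were matched by symbol. The longest unbroken run of C and T is in capitals. The first 4 were chosen to show long runs at or beside the start, and the last 3 to show windows without one. In AAF/PH liver Rplp2 and Rpl36 of the last 3 rose. Of the first 4, Rps10 rose too and Rpl31 fell. A link between runs and these differences was not tested.
Rplp0 (stalk base; chr12:46718371-46718400, minus strand): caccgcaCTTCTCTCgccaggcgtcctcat
Rps18 (small subunit head; chr20:4933735-4933764, plus strand): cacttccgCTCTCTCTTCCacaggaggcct
Rpl31 (large subunit; chr9:49143101-49143130, plus strand): atccctcgcgCCTTTCCTTTCCaacttggg
Rps10 (small subunit head; chr20:5700725-5700754, minus strand): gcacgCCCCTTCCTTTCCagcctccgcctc
Rplp2 (stalk; chr1:205975911-205975940, plus strand): cgCCgccggacgccgccgaggtcgcacgcg
Rpl36 (large subunit; chr9:1533770-1533799, plus strand): cggCCgccatcggaaagctgcaggtaagtc
Rpl11 (large subunit; chr5:153560783-153560812, minus strand): CTTgaagcttgtttggtgctggggagcatc

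A run of at least 6 pyrimidines lay in 45 of the 57 windows (78.9%), against 27.1% of all 33469 promoters in the same window. Read on the other strand, as a run of at least 6 purines, the shares were 15.8% and 32.3%. The longest run had a median of 10 bases in the ribosomal protein genes and 4 in all promoters. An annotated start on C followed by at least 4 pyrimidines was found in 23 of 57 windows (40.4%), against 2.63% of all promoters. The letters CTTTCC stood in 14 of 57 windows (24.6%) against 1.15% of promoters, and their reverse complement GGAAAG in 1 of 57 (1.75%) against 1.26%; a CTTTCC match can lie within a counted run. These are matches of letters at annotated starts, and a window without a run shows only that the letters are not within it.

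The probe sets of these genes lay at the bright end of every array: in each animal their median stood above 98.6% to 99.2% of all genes. Rps18, Rpl36 and Rps29 had the highest mean signals and Rpl15, Rps27 and Rpl3 the lowest, which is an order of probe sets and not of transcript amounts. The interquartile range of log2 intensity over all genes ran from 2.36 to 2.80 in normal liver, 1.98 to 2.26 in AAF/PH liver and 2.15 to 2.61 in placebo foci. It was 2.38 and 2.50 in rapamycin animals 1 and 2 and 1.61 in animal 3. Spread thus moved with the groups, and its part in the differences below was not tested beyond the change of scaling given there. Defining hepatocyte genes were measured in AAF/PH liver at lower levels than in normal liver: the geometric mean was 4503 against 8147 for Alb, 784 against 3106 for Apoa1 and 308 against 4380 for Apoa2. In captured tissue, the choice of area, fewer cells of a type and less RNA per cell cannot be told apart. P-values weigh a group difference against the spread between animals within groups, estimated over all groups together. That spread also holds differences between captures and arrays. It was uneven: the SD over animals of the median log2 intensity of the ribosomal protein genes was 0.682 in rapamycin foci. In the other groups it ran from 0.112 in placebo foci to 0.264 in AAF/PH liver.

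**Figure D1:**
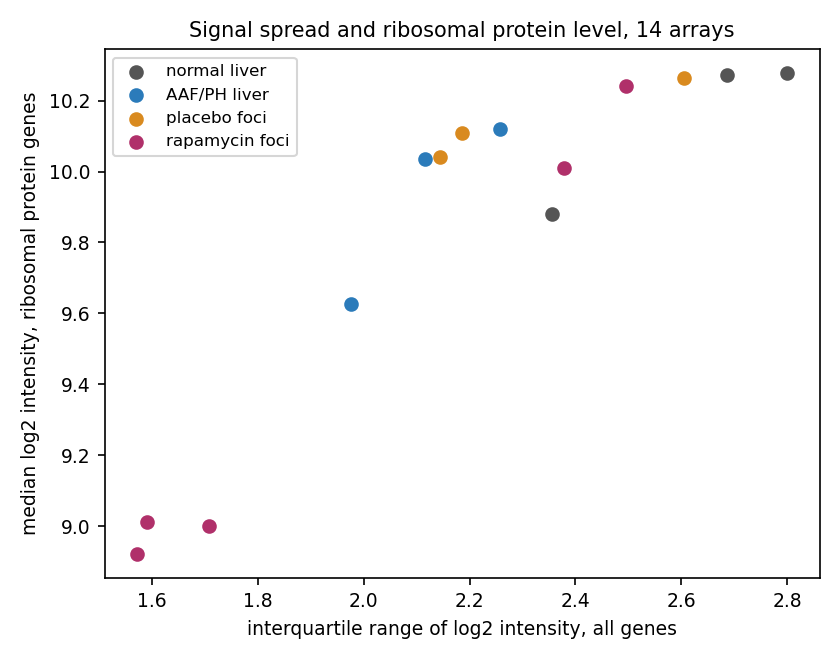
Each point is 1 of the 14 arrays: the x axis gives the interquartile range of log2 intensity over all 14497 genes, the y axis the median log2 intensity of the 67 ribosomal protein genes, and colour the group. The 3 arrays of rapamycin animal 3 stand apart at the lower left, and the AAF/PH arrays lie left of the normal ones.

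The median log2 intensity of the 67 genes was 10.28, 9.88 and 10.27 in the normal animals, 10.03, 9.63 and 10.12 in AAF/PH liver, and 10.11, 10.04 and 10.26 in placebo foci. In the rapamycin group it was 10.01, 10.24 and 8.96. The first 3 groups overlapped, as did rapamycin animals 1 and 2 with them, and rapamycin animal 3 lay below every other animal. It was the lowest of the 12 animals in 59 of the 67 genes (88.1%), against 26.0% of all genes, most of which are dimmer. By rank this animal lay within the range of the others: the median of the 67 genes stood above 98.9% of all genes. Its 3 arrays had medians between 8.92 and 9.01, so both captures from this animal gave the low level. The submitters' design text names this animal as an outlier among the arrays. Its narrow signal spread moved with the low level. The part of that spread in the low level was not tested beyond the change of scaling given below. Calls and medians of the rapamycin group are given with and without it.

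**Figure D2:**
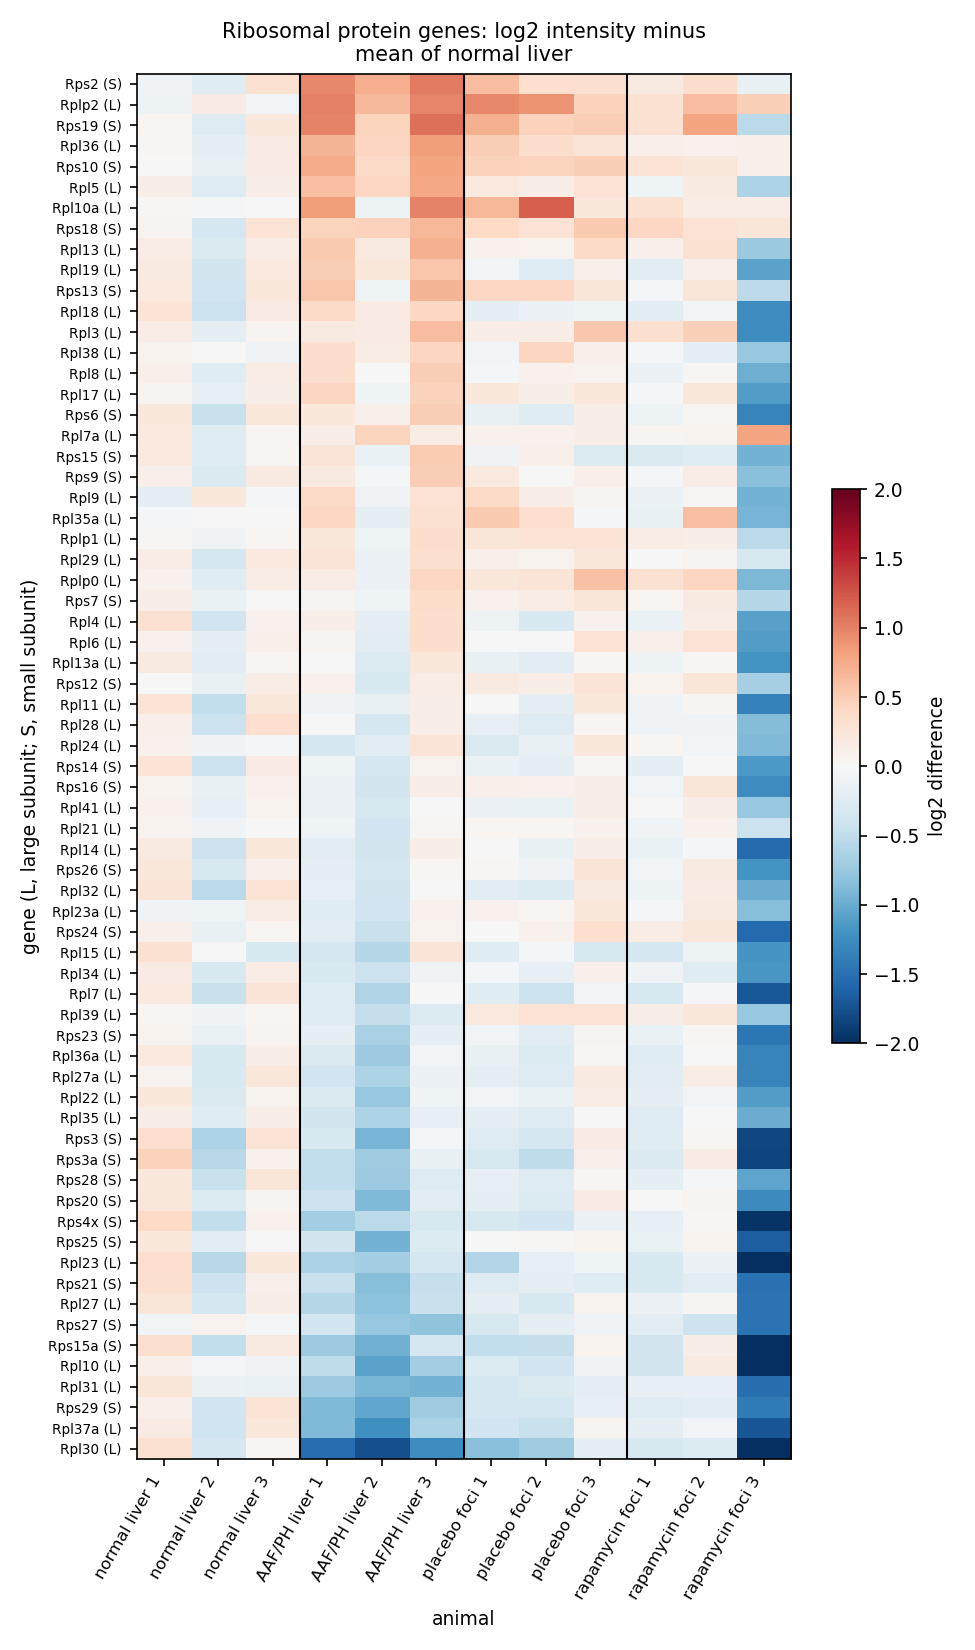
Rows are the 67 ribosomal protein genes, ordered by their AAF/PH minus normal difference, and columns the 12 animals; colour gives the log2 intensity minus the mean of the 3 normal animals. The AAF/PH columns hold genes above and below normal, and the column of rapamycin animal 3 is low in nearly all rows, with Rpl7a the row in which it is the highest of the 12.

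In the deposited values, read from the brightest probe set, AAF/PH liver differed from normal liver in single ribosomal protein genes, not in 1 direction. Other scalings and probe sets, given below, changed this. Rplp2, Rps2, Rps19, Rpl36 and Rps10 rose, and Rpl30, Rps29 and Rpl31 fell, at an adjusted p under 0.05 in a limma fit over all genes. These 8 of 67 are 11.9%, and 20.0% of all genes tested were called, so the share was below the background. Of all genes, 7.54% were called higher and 12.5% lower. The 3 animals of each group did not overlap in 22 of the 67 genes (32.8%), 11 in each direction, where 49.6% of all genes did not overlap. The median difference of the 67 genes was -0.11 on the log2 scale, with 28 above 0 and 39 below, and that of all genes was 0.12.

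Rplp2 encodes an acidic protein of the stalk, the flexible arm of the large subunit that recruits the factors of translation. Its intensity was 2129, 2557 and 2207 in normal liver and 4628, 3593 and 4518 in AAF/PH liver. All 3 AAF/PH animals were above all 3 normal animals, and the difference was 0.88 ± 0.187 (log2, SE, 3 animals a group; adjusted p = 0.00418). The other stalk genes did not pass the test. Rplp0, the stalk base that anchors the acidic proteins, had 819, 653 and 853 in normal and 857, 711 and 1027 in AAF/PH liver, overlapping ranges with a difference of 0.15 ± 0.288 (adjusted p = 0.717). Rplp1, the partner of Rplp2 in the stalk dimer, had 1853, 1740 and 1865 against 2122, 1709 and 2330, also overlapping (0.16 ± 0.200, adjusted p = 0.566).

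Rps2 encodes a small subunit protein at the channel through which messenger RNA enters the ribosome. Its intensity was 1128, 1005 and 1459 in normal liver and 2305, 1967 and 2434 in AAF/PH liver. The groups did not overlap, and the difference was 0.91 ± 0.195 (adjusted p = 0.00437). Of the 4 genes measured at this channel and the decoding site (Rps2, Rps3, Rps15 and Rps23), Rps2 was the one called.

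Rps19 and Rps10 encode small subunit proteins whose loss of 1 copy causes Diamond-Blackfan anaemia, an inherited failure of red cell production. Rps19 had 719, 590 and 817 in normal and 1401, 956 and 1510 in AAF/PH liver, with no overlap (0.85 ± 0.285, adjusted p = 0.0494). Rps10 had 2264, 2040 and 2539 against 3780, 2966 and 3909, again with no overlap (0.63 ± 0.166, adjusted p = 0.0147). Of the 11 measured genes on the list used here for this anaemia, these 2 rose, Rps29 fell and 8 were not called. That list does not hold every gene tied to it. Rpl36, a large subunit protein, was 3767, 3275 and 4135 in normal and 5939, 5012 and 6593 in AAF/PH liver, and each AAF/PH animal lay above each normal one (0.65 ± 0.167, adjusted p = 0.0135).

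Rpl30 had the largest difference of the 67 genes in this comparison. Its protein sits where the 2 subunits meet. The intensity was 1370, 882 and 1138 in normal liver and 388, 330 and 465 in AAF/PH liver, so the highest AAF/PH animal was below the lowest normal one. It fell by 1.51 on the log2 scale (SE 0.430, adjusted p = 0.0228). Rps29, a small zinc-binding protein of the small subunit, went from 5684, 4070 and 6419 to 2883, 2589 and 3236 without overlap (-0.87 ± 0.275, adjusted p = 0.0371). Rpl31, at the rim of the tunnel through which the new protein chain leaves, went from 1678, 1313 and 1293 to 855, 755 and 734, also without overlap (-0.86 ± 0.287, adjusted p = 0.0470). It was the 1 called gene among the 8 measured at the tunnel and its rim.

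**Figure D3:**
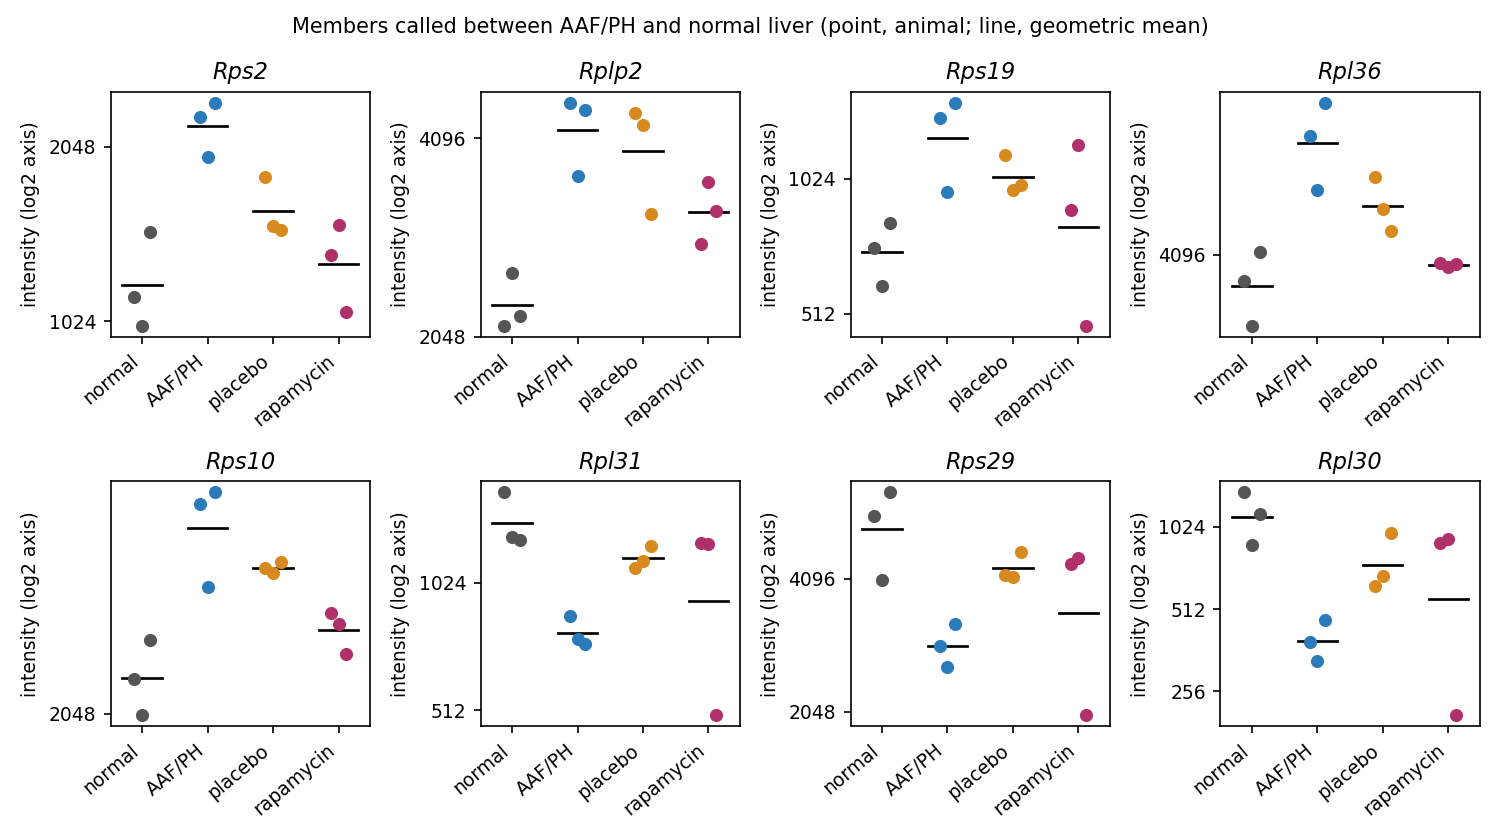
Intensity on a log2 axis of the 8 genes called between AAF/PH and normal liver, 1 panel a gene, for the 4 groups; points are animals and lines geometric means of 3 animals. The normal and AAF/PH points do not overlap in any of the 8 panels, and the low rapamycin point in the panels of the genes that fell is animal 3.

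Several genes of known function in signalling stayed on the other side of the threshold. Rpl5 and Rpl11 bind the 5S ribosomal RNA and, when free of ribosomes, the p53 inhibitor Mdm2. Rpl5 had 1598, 1227 and 1606 in normal and 2217, 1947 and 2501 in AAF/PH liver; the groups did not overlap, and the adjusted p was 0.0583 (0.59 ± 0.208). Rpl11 had 1060, 624 and 1023 against 834, 790 and 958, with overlap (-0.03 ± 0.315, adjusted p = 0.943). Rps6, the substrate of the S6 kinases downstream of mTOR, had 1428, 906 and 1430 against 1424, 1313 and 1733, with overlap (0.27 ± 0.308, adjusted p = 0.538). Rps4x, the X-linked small subunit gene, had 3602, 1945 and 2893 against 1688, 1877 and 2193, with overlap (-0.51 ± 0.394, adjusted p = 0.358). None of the 4 measured X-linked genes (Rps4x, Rpl10, Rpl36a and Rpl39) was called. The dimmest 3 genes were not called either: Rpl15 ran from 36 to 55 in normal and 30 to 53 in AAF/PH liver, Rps27 from 126 to 138 and 75 to 101, and Rpl3 from 260 to 332 and 336 to 458.

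The scaling of the arrays set how many genes were called and in which direction. With the values quantile normalized, 24 of the 67 genes were higher and 2 lower in AAF/PH liver, where 7.64% of all genes were called higher. The median difference of the 67 genes became 0.26, with 44 above 0, and that of all genes 0.02. Of the 8 genes called in the deposited values, 7 were called there too; Rpl31 was not. With each array centred on its median gene, 4 were higher and 5 lower (13.4%, against 21.1% of all genes), and the median was -0.23. The direction of the genes as a group is therefore not settled by these arrays.

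**Figure D4:**
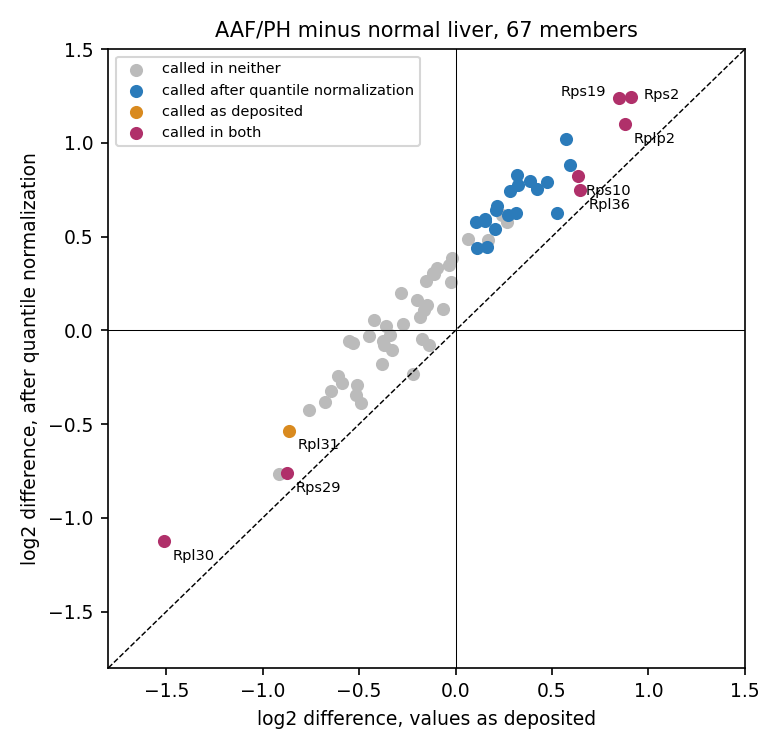
Each point is 1 of the 67 ribosomal protein genes: the x axis gives the AAF/PH minus normal log2 difference in the deposited values, the y axis the same after quantile normalization, and colour in which of them the gene was called. Nearly all points lie above the dashed line of equality, the genes called in the deposited values are named, and the added calls are all above 0.

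Leaving out single animals moved the count as well, and also the share of all genes called. It was 3 without normal animal 1 (10.7% of all genes), 4 without normal animal 2 (18.7%) and 5 without normal animal 3 (12.3%). Without AAF/PH animal 1 or 3 it was 3 (14.6% and 15.7% of all genes). Without placebo animal 1 or 2, which enter only through the shared estimate of spread, it was 5 (18.0% of all genes in both). Without rapamycin animal 3, which also enters only through that estimate, it was 19 (28.4%), with 8 higher and 11 lower. There 35.9% of all genes were called. Those 19 held all 8 genes; the other 11 were Rpl5, Rps18 and Rpl13, which were higher, and Rpl37a, Rpl10, Rps15a, Rps27, Rpl27, Rps21, Rps25 and Rps20, which were lower. Rps2 and Rplp2 stayed under 0.05 when any one of the 6 animals compared was left out; Rpl30 did so in 2 of the 6 cases, Rpl36 in 4, Rps10 in 2, Rps19 and Rps29 in 1 and Rpl31 in 0.

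Ribosomal protein genes have many processed pseudogenes and near-identical copies, which arrays may not separate. The 67 genes had 220 probe sets: 51 genes (76.1%) had over 1, against 3.41% of all genes, and Rpl21 had 19. Each gene above was read from its brightest probe set. All 8 called genes had over 1, and none of the 16 genes with a single probe set was called. In 18 of the 51 genes all other probe sets shared the sign of the one used. Uncalled genes also held probe sets with an adjusted p under 0.05, such as 4 of 7 for Rpl35a and 4 of 6 for Rpl13. For Rpl35a the one used was at 0.17 and the others ran from -0.99 to -0.03. Rpl30's second probe set differed by -1.70 (adjusted p = 0.005 over all probe sets), in the same direction. The other probe sets ranged from -0.30 to 0.62 for Rps2, from -0.03 to 0.67 for Rpl36 and from -0.06 to 0.29 for Rps10. They were 0.15 and 0.19 for Rplp2, from -0.64 to 0.70 for Rps19, -0.38 and 0.26 for Rps29 and from -1.62 to 0.00 for Rpl31. With the mean of all probe sets of a gene, 2 genes were called (2.99%, against 19.9% of all genes), Rpl30 lower (-1.61, adjusted p = 0.0104) and Rpl13 higher. The other 7 genes were not called with that mean, and whether the probe sets of a gene read different copies was not tested.

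**Figure D5:**
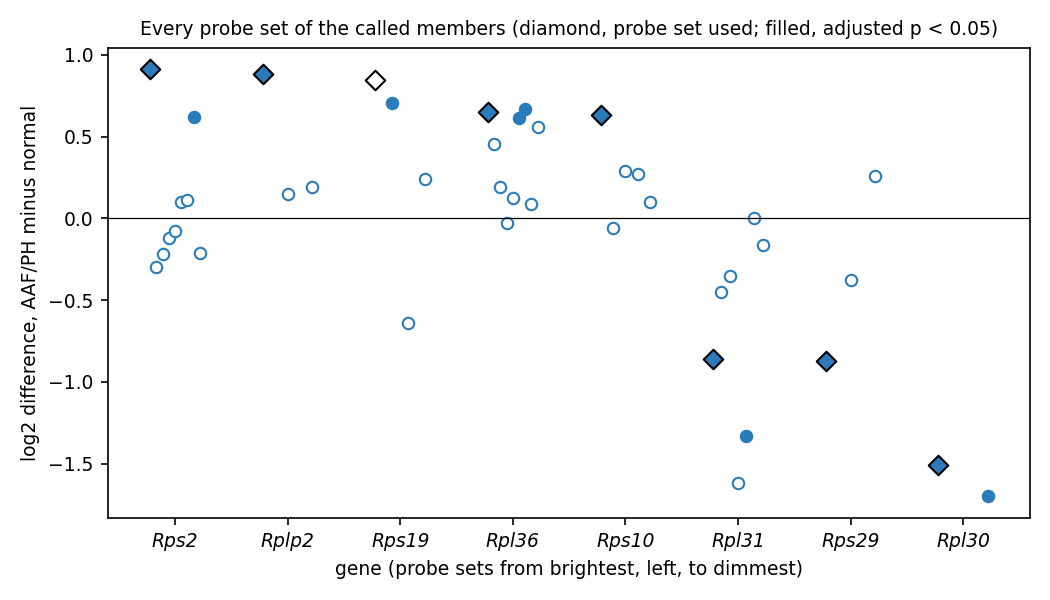
AAF/PH minus normal log2 difference of every probe set of the 8 called genes; diamonds mark the probe set used, and filled symbols an adjusted p under 0.05 over the 15209 probe sets with 1 symbol. The 2 probe sets of Rpl30 lie together below -1.5, and those of Rps2, Rps19 and Rps29 lie on both sides of 0; that of Rps19 passes over genes and not over probe sets.

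Between placebo foci and normal liver, Rplp2 was the 1 gene called of 67 (1.49%), where 8.22% of all genes were called and 2.84% were called higher. Its intensity in the foci was 4465, 4286 and 3142, above all normal animals (0.77 ± 0.187, adjusted p = 0.0177). The call was lost when placebo animal 1 or 2 or normal animal 1 or 3 was left out, and without rapamycin animal 3 Rps10 joined it, at 0.47 (adjusted p = 0.0485), where 5.28% of all genes were called higher. Rps10 had 3138, 3085 and 3191 in the foci and Rpl10a, a large subunit gene, 856, 1239 and 626 against 547, 530 and 540 in normal liver. Both lay above all normal animals without passing (Rpl10a 0.70 ± 0.276, adjusted p = 0.162). Rpl30 had 620, 677 and 975 in the foci, which overlapped normal liver (-0.58 ± 0.430, adjusted p = 0.495). The animals did not overlap in 16 of 67 genes (23.9%; 13 higher, 3 lower), against 30.5% of all genes. The median difference was -0.01 in the deposited values and 0.13 after quantile normalization, so its sign too depended on scaling.

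The comparison of foci from rapamycin and placebo rats addresses the study's main question, and 0 of the 67 genes were called in it by limma, where 0 of all genes were called (0%). At an unadjusted p under 0.05 there were 2, Rpl38 and Rpl9, against 3.33% of all genes. Rpl9, a large subunit gene, had 1907, 1591 and 1520 in placebo and 1341, 1483 and 754 in rapamycin foci, with no overlap (-0.54 ± 0.240, adjusted p = 0.985). Rpl38 had 1337, 1875 and 1485 against 1355, 1211 and 823, with overlap (-0.49 ± 0.204, adjusted p = 0.985); without animal 3 it was at -0.28 (adjusted p = 0.985). The animals of the 2 groups did not overlap in 6 of the 67 genes (8.96%), against 6.04% of all genes. In all 6 the rapamycin animals lay wholly below the placebo animals: Rpl9, Rpl29, Rpl36, Rplp1, Rps10 and Rps13. Of all 14497 genes, the rapamycin animals lay wholly below in 350 and wholly above in 525.

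The difference was below 0 in 66 of 67 genes, with a median of -0.38, against 0.01 for all genes. The exception was Rpl7a, a large subunit gene with 10 probe sets: 1020, 1024 and 1052 in placebo and 1000, 1012 and 1653 in rapamycin foci, the last being animal 3. After quantile normalization, with all animals kept, 66 genes were again below 0 and the median was -0.25, against -0.02 for all genes. Without animal 3, in the deposited values, 32 genes were above 0 and 35 below, and the median was -0.01. Again no ribosomal protein gene was called, where 0.0207% of all genes were. Rpl7a was then at -0.04. The shift of the median thus moved with animal 3, while in Rpl9, Rpl36 and Rps10 all 3 rapamycin animals were below the placebo animals; without animal 3 these were at -0.24, -0.27 and -0.21 and none was called. Rps6 had 1103, 1035 and 1344 in placebo and 1146, 1266 and 485 in rapamycin foci, Rpl11 876, 771 and 1019 against 838, 907 and 343, and Rpl5 1680, 1606 and 1786 against 1384, 1660 and 959. Rapamycin animals 1 and 2 lay within the placebo range, except animal 1 for Rpl5, and animal 3 was the lowest in each. The widest ranges over all animals, those of Rpl30, Rps15a and Rpl23, had the same lowest animal: Rps15a was 1033, 1439 and 316 and Rpl23 400, 454 and 120 in rapamycin foci, against 940 to 1391 and 330 to 462 in placebo foci.

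Against normal liver, which it shares with the comparisons above, the rapamycin group had 0 of 67 genes called, where 6.53% of all genes were. At an unadjusted p under 0.05, 1 was higher (Rplp2) and 5 lower (Rps27, Rpl30, Rps21, Rps29 and Rps15), against 26.6% of all genes. Rplp2 had 2835, 3518 and 3176 in rapamycin foci, above all normal animals and with animal 3 between the other two (0.47 ± 0.187, adjusted p = 0.139; 0.46 without animal 3, adjusted p = 0.211). The 2 other probe sets of Rplp2 were at -0.100 and -0.098 in this comparison. Rps27 had 112, 99 and 47 against 126, 138 and 130 (-0.70 ± 0.262, adjusted p = 0.119), and without animal 3 the difference was -0.32 (adjusted p = 0.386). The median difference was -0.36 with animal 3 and -0.03 without it, where 59 and 36 of the 67 genes were below 0. After quantile normalization, with animal 3 kept, the median was -0.12 and 44 genes were below 0. The animals were apart in 5 of the 67 genes (7.46%), against 29.7% of all genes. Without animal 3 there were again 0 calls among the 67, where 6.68% of all genes were called.

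Against AAF/PH liver, 0 of 67 genes were called in placebo foci (4.19% of all genes), with 3 at an unadjusted p under 0.05 (15.3% of all genes). Rpl39, a small protein of the exit tunnel, had 2149, 1833 and 2107 in AAF/PH liver and 2917, 3101 and 3099 in placebo foci, without overlap (0.59 ± 0.222, adjusted p = 0.194). Without rapamycin animal 3 the count was 5, all higher in placebo foci (Rpl30, Rpl37a, Rpl31, Rpl39 and Rps29), where 7.82% of all genes were called higher. After quantile normalization 4 were lower and 0 higher, where 7.17% of all genes were called, and the median difference turned from 0.10 to -0.08. In rapamycin foci 1 of 67 was called, where 4.01% of all genes were called and 1.87% called lower. This was Rps2, at 1334, 1502 and 1062 against 2305, 1967 and 2434, without overlap (-0.79 ± 0.195, adjusted p = 0.0335). Leaving out rapamycin animal 1, normal animal 1, placebo animal 2 or any AAF/PH animal ended that call. Without rapamycin animal 2 there were 3, all lower, where 2.89% of all genes were called, and without rapamycin animal 3 there were 8, where 14.2% of all genes were called: Rps2 (-0.65, adjusted p = 0.0272) and Rpl36 were lower and Rpl30, Rpl37a, Rpl31, Rpl10, Rps29 and Rpl39 higher. After quantile normalization 16 were lower, where 4.25% of all genes were called lower. The median difference from AAF/PH liver was -0.24 with animal 3 and 0.11 without it.

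Other gene groups of the pathway give the setting in AAF/PH liver. There were 68 mitochondrial ribosomal protein genes, which build the separate ribosome of mitochondria. Of these 21 fell (30.9%, against 12.5% of all genes called lower), none rose and the median was -0.65. After quantile normalization 13 fell, where 19.1% of all genes were called in either direction, and the median was -0.45. Of 37 proteasome genes, another set of subunits made in matched amounts, 3 fell (8.11%) and the median was -0.42 (-0.06 after quantile normalization, with 1 lower). The difference between these sets and the 67 genes was not tested. Fau, Rpsa and Rack1, ribosomal components with other names, were not called, at 0.12, -0.27 and 0.12. Rpl22l1, the paralogue of Rpl22, fell by 2.47 (SE 0.542, adjusted p = 0.00521), from 76, 48 and 55 to 9, 10 and 13, values at the dim end of the array.

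Among 40 measured genes of ribosome assembly, 5 rose and 1 fell (15.0%, against 20.0% of all genes). Those that rose included Nhp2 (0.93 ± 0.286, adjusted p = 0.0342), Gar1 (0.56 ± 0.167, adjusted p = 0.0292) and Dkc1 (0.47 ± 0.150, adjusted p = 0.0395), and the one that fell was Nop10 (-1.73 ± 0.400, adjusted p = 0.00723). All 4 belong to the H/ACA particle that converts uridines of ribosomal RNA to pseudouridine. With arrays centred on their median gene none rose, where 21.1% of all genes were called in either direction. After quantile normalization 11 rose, where 7.64% of all genes were called higher. Of 14 other genes of translation known or thought to carry a TOP element, Hnrnpa1, an RNA-binding protein, was the one called (1.12 ± 0.226, adjusted p = 0.0029). After quantile normalization 4 of the 14 rose, where 7.64% of all genes were called higher. Of 15 measured genes from mTOR to translation 3 were called (20.0%, the share of all genes): Ddit4, a stress-induced inhibitor of mTOR, rose (1.10 ± 0.251, adjusted p = 0.00677), and Eif4ebp2 and Rps6kb1, targets of mTOR, fell. Ddit4 was also higher in placebo foci (1.16 ± 0.251, adjusted p = 0.009).

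The targets of p53 had a median difference of 1.80 between AAF/PH and normal liver. Mdm2, to which free Rpl5 and Rpl11 bind, had 45, 39 and 51 in normal and 231, 121 and 237 in AAF/PH liver, without overlap (2.06 ± 0.266, adjusted p = 9.3e-05). Cdkn1a, an inhibitor of the cell cycle, had 124, 132 and 160 against 852, 605 and 786 (2.43 ± 0.335, adjusted p = 0.000159). Ccng1 and Bax rose as well, so 4 of 4 measured genes were called, where 7.54% of all genes were called higher. A link between these genes and the ribosomal protein genes was not tested. In placebo foci Mdm2 was 55, 53 and 75 and Cdkn1a 103, 130 and 143, and none of the 4 was called against normal liver.

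Markers of cell types moved with the AAF/PH comparison, and their part in the differences above was not tested. Of 8 hepatocyte genes 6 fell, and their summed intensity was 38410 to 42000 in normal and 19800 to 23130 in AAF/PH liver. Of 6 measured biliary and oval cell genes 5 rose, and the sum went from between 112 and 137 to between 402 and 585. Of 7 stellate cell genes 4 rose, and the sum went from between 505 and 723 to between 1342 and 4330. Of 11 cell cycle genes 3 rose, as did 2 of 8 macrophage and 1 of 7 lymphocyte genes, and 1 of 5 endothelial and 2 of 2 erythroid genes fell. In placebo foci 3 of the 8 hepatocyte genes fell, and 3 biliary, 5 cell cycle and 1 stellate cell genes rose, against normal liver. There 1 macrophage, 1 endothelial and 1 erythroid gene fell, and 0 lymphocyte genes were called. Between rapamycin and placebo foci none of the genes on these lists was called.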

How the data were processed

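Values were the intensities the authors deposited for 14 arrays; the submitters' processing notes name RMA and Partek 6.6, and the settings are not given in the sources used here. Labelling started from 150 ng of total RNA. The deposited intensities were linear and were taken to log2. Of 28826 probe sets, 15209 had 1 gene symbol in the platform annotation, 306 several and 13311 none; a gene was read from its probe set of highest mean. For rapamycin animal 3 the mean log2 value of its 3 arrays was used. Differences were tested with limma 3.58.1 in R 4.3.3 (lmFit and eBayes, 4 group means over 12 animals, 8 residual degrees of freedom, 2-sided), with Benjamini-Hochberg adjustment over all 14497 genes and a threshold of 0.05. The number of arrays limits the precision. Settings tried were 2 other scalings, other ways to combine arrays or probe sets, array weights, an intensity trend, dim genes left out, only the groups compared, a replicate block and leaving out each animal. The fit was tested on simulated data.

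The genes and lists were chosen with earlier results of these data known. Genes were named by rule: the stalk genes, Rpl5, Rpl11, Rps6, Rps19 and Rps4x; the called genes of each comparison, or the 3 of largest statistic in a direction with few calls; the brightest and dimmest 3; the 3 of widest range; and the genes of smallest p in other lists. Further names complete small counts and were chosen after their values were seen. Summed marker intensities add unlike probe sets and serve only to compare groups. Start windows were read from RefSeq promoter records on GRCr8.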

Additional observations from a re-analysis of the deposited data

Results flagged for a closer look

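Rps2 differed between groups set against the same normal liver. Its difference from normal was 0.91 in AAF/PH liver and 0.12 in rapamycin foci, and the direct test of rapamycin foci against AAF/PH liver gave -0.79 ± 0.195 on the log2 scale (3 animals a group, limma adjusted p = 0.0335). All 3 rapamycin animals were lower than all 3 AAF/PH animals. In 24 other settings the difference ran from -0.90 to -0.16, and with the mean of Rps2's 9 probe sets the adjusted p was 0.854.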

How the results depend on the processing

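The labels state no pairing of animals across groups by replicate number. Deviations from group means correlated from -0.681 to 0.381 over 18 same-numbered pairs, 7 of them over 0.1. Over 36 pairs with other numbers they ran from -0.481 to 0.626, 15 of them over 0.1. Whether animals were paired cannot be read from these overlapping ranges. With the number as a replicate block, 5 ribosomal protein genes were called between AAF/PH and normal liver (8 without it). There the share of all genes called fell as well, from 20.0% to 15.7%. Between rapamycin foci and AAF/PH liver 0 were called (1 without it), where the share of all genes fell from 4.01% to 2.88%. The counts of the other comparisons did not move by over 1.5 times. For AAF/PH against normal liver the count was 26 after quantile normalization, 2 with the mean of all probe sets, 33 with array weights, 3 with an intensity trend and 17 with only those 2 groups, and 3 to 19 with 1 animal left out. In those settings 19.1%, 19.9%, 55.2%, 20.5%, 35.3% and 10.7% to 35.9% of all genes were called. The array weights stopped before they converged. For placebo foci against normal liver (1) the counts in that order were 3, 1, 13, 0 and 3, and 0 to 2, where 4.18% to 44.4% of all genes were called. For rapamycin foci against normal liver (0) array weights gave 1, and leaving out 1 animal 0 to 1, where 1.55% to 14.1% of all genes were called. For placebo foci against AAF/PH liver (0) there were 4 after quantile normalization, 5 with array weights, 4 with only those groups, and 0 to 5, where 2.28% to 13.9% of all genes were called. For rapamycin foci against AAF/PH liver (1) there were 16 after quantile normalization, 2 with the second capture of animal 3 alone, 0 with the mean of probe sets, 2 without dim genes, 0 with the trend, 0 with only those groups, and 0 to 8, where 1.41% to 14.2% of all genes were called. Rapamycin against placebo foci gave 0 in every setting run. The cause of these moves was not tested. Rapamycin animal 3 is in neither group of AAF/PH against normal liver, so leaving it out changes the estimate of spread and not the differences. Rpl30 stayed at -1.51 there, and its SE went from 0.430 to 0.200. A setting restricted to probe sets with a RefSeq transcript was added after seeing the data.

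Group medians moved by less than the pooled spread between animals (SD 0.387), which rapamycin animal 3 widens: it was 0.205 without that animal. The move from -0.11 to 0.26 for AAF/PH against normal liver after quantile normalization, a change of sign, exceeds the latter. Other moves did too, among them those of the rapamycin group when its animal 3 was left out. Its median went from -0.38 to -0.01 against placebo foci and from -0.36 to -0.03 against normal liver. Against AAF/PH liver it changed sign, from -0.24 to 0.11. Of 864 alternatives for 36 named differences, 761 kept direction and side of the threshold, 70 lost the call, 31 gained one and 2 turned: Rpl7a between rapamycin and placebo foci, at -0.037 without rapamycin animal 3 and 0.33 without animal 1, and Rps2 between placebo foci and AAF/PH liver, at 0.0061 with the mean of probe sets. Signals near the floor, such as Rpl22l1's in AAF/PH liver, limit what a fold can show.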
